A study of Mus musculus with 6 samples.

Results

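The 31 genes described here are the p53 gene *Trp53* and 30 genes of its pathway, most of them transcriptional targets of the p53 protein. They were taken by symbol from a fixed list and make up 31 of the 55357 genes in the deposited counts. All 31 were among the 21876 genes that had at least 6 reads in at least 1 library and were tested, so that no member was lost to the filter on low counts.

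The data were 6 RNA-seq libraries of poly(A) RNA from wild-type mouse primary neurons, cultured from the cortex and hippocampus of C57BL/6N embryos at embryonic day 18. In 3 libraries (shCtrl) the cultures had received a lentivirus with a scrambled short hairpin RNA (shRNA). In the other 3 (sh*Pla2g4e*) the lentivirus carried an shRNA against *Pla2g4e*, which encodes a calcium-dependent N-acyltransferase of the cytosolic phospholipase A2 family. All cultures were transduced at 4 days in vitro (DIV) and collected at 14 DIV, and no untransduced culture was analysed here, so that both groups share the viral infection and the expression of a hairpin. A single shRNA sequence, sh2, stands for the knockdown, delivered in the pLVTHM backbone, whose hairpin promoter is not restricted to neurons, and the cultures also held glial transcripts. The labels do not say whether the 3 libraries of a group come from separate preparations, and the p-values measure only the spread between these libraries.

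The p53 protein is a transcription factor that is kept scarce by MDM2, which marks it for degradation, and is held inactive by MDM4. DNA damage, loss of trophic support and other stresses release it, and it then switches on genes that stop the cell cycle, repair DNA, buffer oxidative and metabolic stress or start apoptosis through the mitochondria. In postmitotic neurons the apoptotic branch, led by the BH3-only proteins PUMA and NOXA and by BAX, is the best known, and several of the same genes are also induced by neuronal activity. The level of *Trp53* mRNA is a poor guide to the pathway, since p53 is controlled mainly as a protein.

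p53 binds DNA as a tetramer, on a pair of half-sites of 10 bases each. The windows from 250 bases before to 50 bases after the annotated starts (RefSeq, GRCm38.p6) were searched for such a full site on both strands, with a spacer of at most 1 base and at most 1 mismatch to the consensus, which reads the same on both strands. Windows were held for 23 of the 31 members and for 27025 genes in all. A full site occurred in 4 of the 23 members (17.4%) and in 57 of all genes (0.211%), and an exact half-site in 11 members (47.8%) and in 9.55% of all genes. The 4 sites are shown because they spell out the sequence that p53 recognizes, with the half-sites in capitals, 5′ to 3′ on the strand of the gene.
*Cdkn1a*, chr17:29090908-29090967 (plus strand): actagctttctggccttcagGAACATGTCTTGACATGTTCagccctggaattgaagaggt
*Ccng1*, chr11:40755442-40755501 (minus strand): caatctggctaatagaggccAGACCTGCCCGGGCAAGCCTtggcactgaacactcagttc
*Bax*, chr7:45467070-45467130 (minus strand): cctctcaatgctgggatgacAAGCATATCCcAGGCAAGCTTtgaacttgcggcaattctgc
*Polk*, chr13:96519378-96519437 (minus strand): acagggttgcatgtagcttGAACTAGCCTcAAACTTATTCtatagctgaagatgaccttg
The sites begin 51 bases before the start in *Cdkn1a*, at 1 of its 2 annotated starts, 195 bases before it in *Ccng1*, 212 in *Bax* and 231 in *Polk*, also at 1 of 2 annotated starts, the more downstream one. Counted over the capitals alone, without the spacer, the mismatch lies at base 11 in *Cdkn1a*, 5 in *Ccng1*, 7 in *Bax* and 17 in *Polk*. A match of letters is a description and not a measured binding site, and sites outside these windows were not searched for.

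Between 17054717 and 23570180 reads were counted per library. Levels are given as CPM (reads of a gene relative to the total of the library) scaled with TMM factors, differences as log2 fold changes of sh*Pla2g4e* against shCtrl with their standard error (SE), and the adjusted p is that of edgeR's quasi-likelihood test with Benjamini-Hochberg adjustment over all genes tested. A gene was called differentially expressed below an adjusted p of 0.01. *Pla2g4e* itself had 38.0, 35.1 and 35.4 CPM in shCtrl and 21.8, 14.2 and 18.7 CPM in sh*Pla2g4e*, a log2 fold change of −0.99 (SE 0.13, adjusted p = 1.24e-04). The same-numbered libraries of both groups deviated together, so that a fit with the replicate number as a block was also made. Its adjusted p is given where it changes the call of a member. The labels do not say that equal numbers mark a shared preparation, and the pairing rests on the counts themselves.

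Of the 31 members, 3 were called with edgeR's quasi-likelihood test (9.68%), against 6.49% of all genes tested. *Btg2* and *Ccng1* rose, where 2.48% of all genes were up-regulated, and *Zmat3* fell, where 4.00% of all genes were down-regulated. Over all genes, 876 of the 1419 called genes were lower in sh*Pla2g4e*, a split that turned to 609 of 1405 with scaling by library size alone, and the 3 members stayed called in the same directions. In log2 fold change, 22 members lay above 0 and 9 below, which is 71% higher against 53.5% of all genes tested. The median over the members was 0.17, against 0.029 over all genes and −0.023 over those whose log2 CPM averaged 3 or more. With the replicate block 11 members were called (35.5%), against 15.5% of all genes. The 8 genes added were *Cdkn1a*, *Bbc3*, *Pmaip1*, *Phlda3*, *Trp53inp1*, *Eda2r* and *Gdf15*, all higher in sh*Pla2g4e*, and *Mdm4*, which was lower. The spread of a gene in edgeR is drawn in part from other genes, so that a call with the block does not mean that all pairs agreed. In replicate 3 the log2 ratio was −0.034 for *Phlda3*, −0.20 for *Eda2r* and −0.051 for *Gdf15*, and 0.011 for *Trp53inp1*. Apart from *Phlda3*, *Eda2r* and *Gdf15*, the genes added kept their direction in every pair.

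The members are mostly well expressed, and well expressed genes are called more often. Among the 25 members whose log2 CPM averaged 3 or more, 3 were called, where 11.0% of all such genes were, and 10 with the block, where 26.0% of all such genes were. The groups did not overlap for 13 members (41.9%), against 30.0% of all genes tested. With only genes of at least 10 reads in every library kept, 14 members and 35.6% of all genes did not overlap. In 7 of the 13 members every sh*Pla2g4e* library was higher (*Btg2*, *Ccng1*, *Bbc3*, *Trp53inp1*, *Ppm1d*, *Xpc* and *Rrm2b*), and in 6 every sh*Pla2g4e* library was lower (*Zmat3*, *Mdm4*, *Bax*, *Ei24*, *Plk3* and *Sesn1*).

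**Figure D1:**
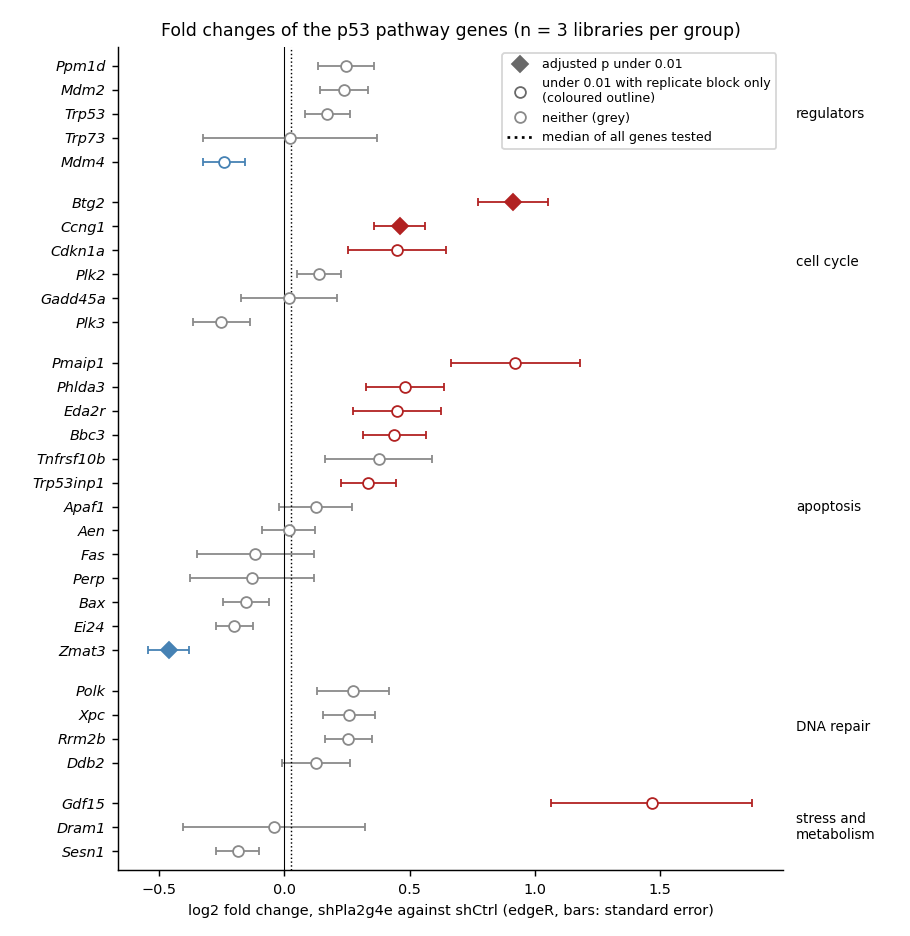
Log2 fold change (x axis) of each of the 31 genes in sh*Pla2g4e* against shCtrl, 3 libraries per group, grouped by role, with bars for the standard error. Filled diamonds mark the 3 genes called by edgeR, coloured open circles the 8 called only with the replicate block and grey circles the others, and most points lie to the right of the dotted line at the median of all genes, 0.029.

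In the control cultures the most abundant members per length belonged to the cell cycle group. *Cdkn1a* had 49.02 ± 9.45 CPM per kb of exon (SD, n = 3), *Ccng1* 48.3 ± 1.88 and *Plk2* 46.02 ± 4.19, which did not differ beyond their spread. *Phlda3* (30.5 ± 1.28), *Ei24* (28.7 ± 0.448) and *Bax* (23.6 ± 0.73) followed, and *Trp53* itself was in the middle with 10.9 ± 0.429 CPM per kb. At the low end were *Gdf15* (0.518 ± 0.152), *Dram1* (0.438 ± 0.127) and *Trp73* (0.242 ± 0.0617), the first pair of which overlapped in their spread. The counts of *Gdf15* were 14 to 86 reads per library, those of *Dram1* 20 to 34 and those of *Trp73* 20 to 37, so that these 3 genes were measured with less precision than the rest.

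**Figure D2:**
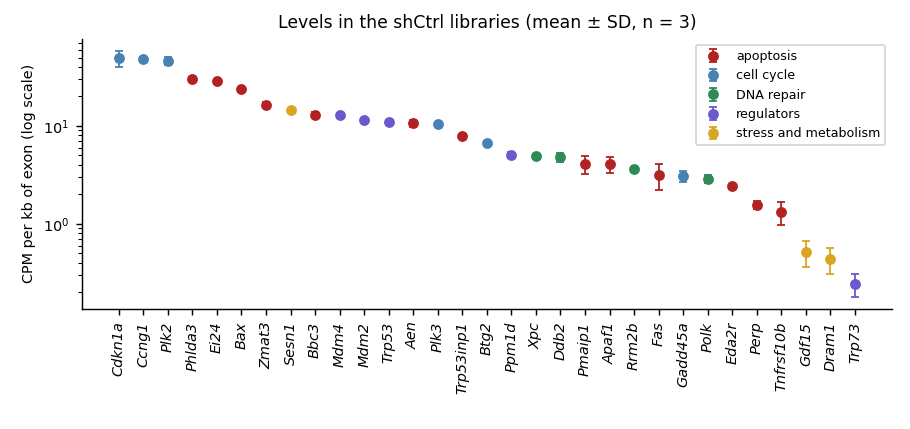
Level in the shCtrl libraries of each of the 31 genes in CPM per kb of exon on a log scale, as the mean with bars for the SD (n = 3), coloured by role. The genes run from *Cdkn1a* at 49.02 to *Trp73* at 0.242 CPM per kb.

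Among the 5 regulators of the pathway none was called, and *Mdm4* alone was called, as lower, with the replicate block, where 6.49% and 15.5% of all genes were. *Trp53* had 44.2, 42.5 and 46 CPM in shCtrl and 45.6, 53.9 and 50.2 CPM in sh*Pla2g4e* (log2 fold change 0.17, SE 0.089, edgeR adjusted p = 0.244), and its groups overlapped, the lowest sh*Pla2g4e* library lying just below the highest shCtrl library. *Mdm2*, the ubiquitin ligase that p53 induces against itself, had 56.1, 59.4 and 58.8 CPM in shCtrl and 70.5, 76.8 and 58.2 CPM in sh*Pla2g4e*, a log2 fold change of 0.24 (SE 0.097, edgeR adjusted p = 0.129). Replicates 1 and 2 of sh*Pla2g4e* were above all controls for *Mdm2*, and replicate 3 lay among them. Without sh*Pla2g4e* replicate 2 the log2 fold change was 0.11 for *Trp53* and 0.15 for *Mdm2*.

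*Mdm4*, the partner of MDM2 that inhibits p53, was lower in every sh*Pla2g4e* library. It had 193, 177 and 199 CPM in shCtrl and 167.5, 146 and 169 CPM in sh*Pla2g4e*, a log2 fold change of −0.24 (SE 0.084). edgeR's adjusted p was 0.0761 without and 0.00283 with the replicate block. The phosphatase gene *Ppm1d*, another negative regulator, had 16.0 ± 1.01 and 19.0 ± 0.196 CPM (log2 fold change 0.25, edgeR adjusted p = 0.177), with no overlap between the groups. *Trp73*, a homologue of *Trp53*, had 1.34 ± 0.341 and 1.37 ± 0.216 CPM.

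Among the 6 cell cycle genes, 2 rose and 1 more was called as higher with the replicate block, where 6.49% and 15.5% of all genes were called. *Btg2* (ENSMUSG00000020423.7, chr1:134002908-134006858 on GRCm39, minus strand) encodes an antiproliferative cofactor of mRNA deadenylation that is both a p53 target and an early response gene. It had 18.5, 18.7 and 17.3 CPM in shCtrl and 27.8, 43.2 and 31.65 CPM in sh*Pla2g4e*. Each sh*Pla2g4e* library was well above the narrow range of the controls. The log2 fold change was 0.91 (SE 0.14, edgeR adjusted p = 3.90e-04), and *Btg2* was the 1 member that stayed called when any library was left out.

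*Ccng1* (ENSMUSG00000020326.8, chr11:40639379-40646138, minus strand), which encodes cyclin G1, a partner of protein phosphatase 2A in the control of MDM2, had 174.5, 162 and 172 CPM in shCtrl and 231.5, 273 and 195 CPM in sh*Pla2g4e*. All sh*Pla2g4e* libraries were higher, replicate 3 the least. The log2 fold change was 0.46 (SE 0.10, edgeR adjusted p = 0.00697). This call was lost when any library other than sh*Pla2g4e* replicate 3 was left out, with an adjusted p of up to 0.0550.

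*Cdkn1a* (ENSMUSG00000023067.15, chr17:29309950-29319701, plus strand), which encodes the cyclin-dependent kinase inhibitor p21 and is the classic p53 target, had 204, 180.5 and 138 CPM in shCtrl and 246, 319.9 and 147 CPM in sh*Pla2g4e*. The groups overlapped, since replicate 3 was the lowest library in both of them, but within each number the sh*Pla2g4e* library was the higher. The log2 fold change was 0.45 (SE 0.20), and edgeR's adjusted p was 0.160 without and 2.02e-05 with the replicate block. Without sh*Pla2g4e* replicate 2 the log2 fold change was 0.18, and without sh*Pla2g4e* replicate 3 it was 0.70. A gene on the opposite strand covers 7.68% of the exon bases, and reads that fell on both genes were not counted for either. The polo-like kinase genes *Plk2* (206.7 ± 18.8 and 227 ± 16.4 CPM, edgeR adjusted p = 0.359) and *Plk3* (26.4 ± 0.97 and 22.2 ± 2.98 CPM, adjusted p = 0.176) and the growth arrest gene *Gadd45a* (5.38 ± 0.691 and 5.44 ± 0.76 CPM) were not called. With 1 library left out, the log2 fold change ranged from 0.090 to 0.21 for *Plk2* and from −0.31 to −0.14 for *Plk3*, and that of *Gadd45a* took either sign. A gene on the opposite strand covers 19.1% of the exon bases of *Gadd45a*.

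**Figure D3:**
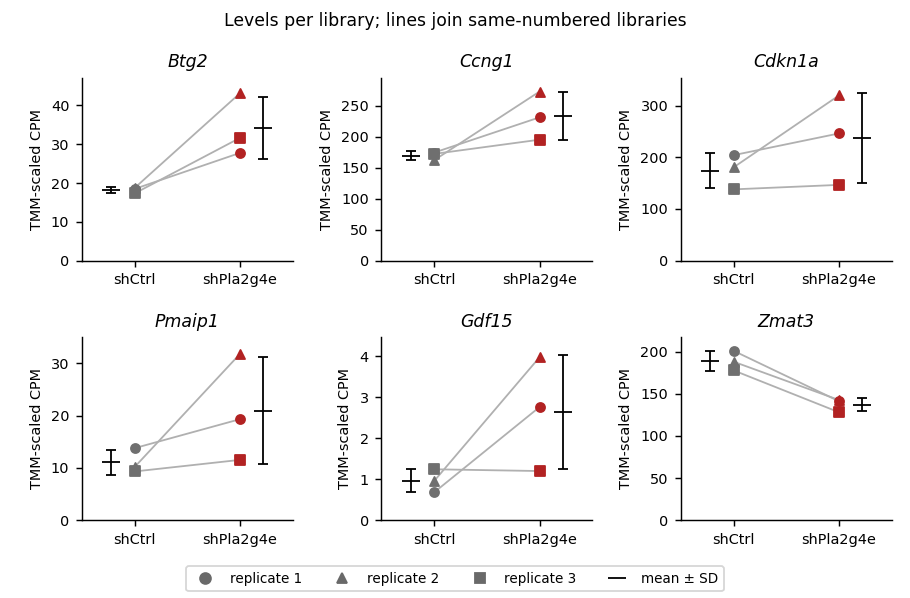
TMM-scaled CPM of 6 members in each library, with grey lines joining libraries of the same number and black marks for the mean ± SD (n = 3 per group). *Btg2* rose and *Zmat3* fell in every pair, and *Cdkn1a*, *Pmaip1* and *Gdf15* had sh*Pla2g4e* replicate 3 within or near the range of the controls.

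The apoptosis genes, 13 in all, did not move together. *Zmat3* fell, 5 genes were called as higher only with the replicate block, and 7 were not called in either fit. Of all genes tested 6.49% were called, and 15.5% with the block. *Bax*, whose product permeabilizes the mitochondrial outer membrane, had 38.5, 36.7 and 36.4 CPM in shCtrl and 33.2, 31.5 and 35.7 CPM in sh*Pla2g4e*. Every sh*Pla2g4e* library was lower, by a log2 fold change of −0.15 (SE 0.091) that did not pass (edgeR adjusted p = 0.318). Reads shared with an overlapping gene on the same strand, which covers 12.2% of its exon bases, were not counted for either gene.

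The 2 members that encode BH3-only proteins, which act upstream of BAX, passed with the replicate block and not without it. *Bbc3*, which encodes PUMA, had 29.5, 27.0 and 25.6 CPM in shCtrl and 37.4, 44.1 and 29.6 CPM in sh*Pla2g4e*, so that the lowest sh*Pla2g4e* library just cleared the highest control. The log2 fold change was 0.44 (SE 0.13), and edgeR's adjusted p was 0.0301 without and 3.37e-04 with the replicate block. *Pmaip1*, which encodes NOXA, had 13.8, 10.2 and 9.32 CPM in shCtrl and 19.3, 31.8 and 11.5 CPM in sh*Pla2g4e*, a log2 fold change of 0.92 (SE 0.26). Its edgeR adjusted p was 0.0265 without and 1.71e-06 with the block, and without sh*Pla2g4e* replicate 2 the log2 fold change was 0.49. The *Pmaip1* groups overlapped through sh*Pla2g4e* replicate 3, which lay below shCtrl replicate 1.

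A further 3 apoptosis genes had the same shape, with sh*Pla2g4e* replicates 1 and 2 above all controls and replicate 3 at their level. *Phlda3*, which encodes an inhibitor of AKT, had 49.2, 45.3 and 47.9 CPM in shCtrl and 64.0, 87.75 and 46.7 CPM in sh*Pla2g4e* (log2 fold change 0.48, SE 0.15). Its edgeR adjusted p was 0.0513, and 1.34e-04 with the block. *Trp53inp1*, which encodes a stress-induced nuclear protein that promotes autophagy and death, had 51.3, 48.97 and 52.0 CPM in shCtrl and 63.7, 76.0 and 52.45 CPM in sh*Pla2g4e* (0.34, SE 0.11).

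For *Trp53inp1* edgeR's adjusted p was 0.0573 without and 0.00201 with the replicate block. *Eda2r*, the receptor of the EDA-A2 ligand in the TNF receptor family, had 13.15, 14.75 and 14.8 CPM in shCtrl and 21.0, 24.3 and 12.9 CPM in sh*Pla2g4e* (log2 fold change 0.45, SE 0.18). Its edgeR adjusted p was 0.112 without and 0.00825 with the block. In *Eda2r* the library sh*Pla2g4e* replicate 3 was the lowest of all 6. Without sh*Pla2g4e* replicate 2 the log2 fold changes of *Phlda3*, *Trp53inp1* and *Eda2r* were 0.23, 0.20 and 0.26.

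*Zmat3* (ENSMUSG00000027663.13, chr3:32388941-32420163, minus strand), which encodes an RNA-binding zinc finger protein that acts on splicing and mRNA stability, went the other way. It had 201, 188 and 178 CPM in shCtrl and 141, 142.5 and 128 CPM in sh*Pla2g4e*, with a wide gap between the groups. The log2 fold change was −0.46 (SE 0.081, edgeR adjusted p = 0.001255), and without shCtrl replicate 2 the adjusted p was 0.0111. *Ei24*, of the endoplasmic reticulum, was lower in every sh*Pla2g4e* library at 139.7 ± 2.18 and 122 ± 2.47 CPM, a log2 fold change of −0.20 that was not called (edgeR adjusted p = 0.0928).

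The death receptor genes *Fas* (log2 fold change −0.12) and *Tnfrsf10b* (0.38), the apoptosome gene *Apaf1* (0.13), the nuclease gene *Aen* (0.017) and the junction gene *Perp* (−0.13) all overlapped between the groups. Their adjusted p from edgeR lay between 0.291 for *Tnfrsf10b* and 0.946 for *Aen*. These values rested on single libraries, and with 1 library left out they ranged from −0.37 to 0.15 for *Fas*, 0.17 to 0.55 for *Tnfrsf10b*, −0.025 to 0.27 for *Apaf1*, −0.11 to 0.12 for *Aen* and −0.30 to 0.012 for *Perp*. Of these 5 genes, *Tnfrsf10b* alone kept its sign.

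**Figure D4:**
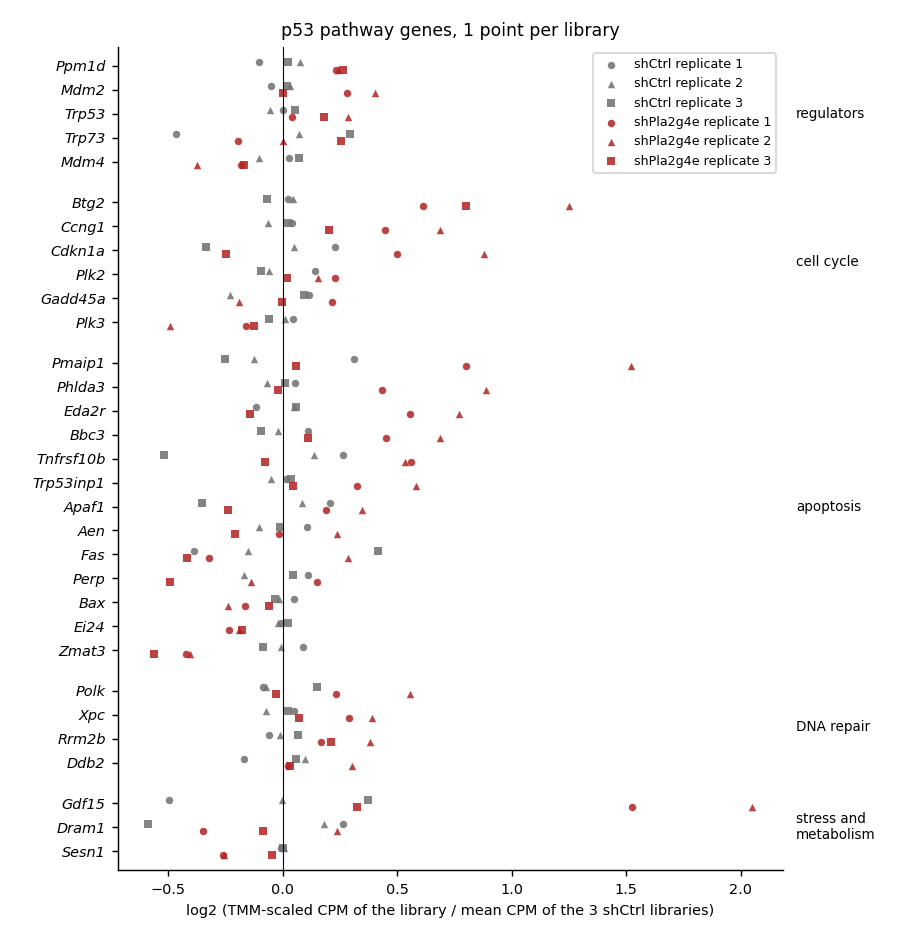
Level of each of the 31 genes in each of the 6 libraries, as the log2 ratio to the mean of the shCtrl libraries (x axis), grouped by role, with 1 symbol shape per replicate number. For the apoptosis genes *Phlda3*, *Trp53inp1* and *Eda2r* the red squares of sh*Pla2g4e* replicate 3 lie near 0, and for *Zmat3* all red symbols lie to the left of the grey ones.

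The 4 DNA repair genes were all higher on average, where 53.5% of all genes tested were. None was called in either fit, where 6.49% of all genes were, and 15.5% with the block. *Rrm2b*, the ribonucleotide reductase subunit that p53 induces to supply nucleotides outside of S phase, had 33.6 ± 1.47 and 40.1 ± 3.23 CPM (log2 fold change 0.26, edgeR adjusted p = 0.0872). *Xpc*, which recognizes damage in nucleotide excision repair, had 27.3 ± 1.21 and 32.6 ± 3.59 CPM (0.26, adjusted p = 0.122). Both had no overlap between the groups, where 30.0% of all genes tested had none. The translesion polymerase gene *Polk* (0.27, adjusted p = 0.247) and the damage sensor gene *Ddb2* (0.13, adjusted p = 0.622) overlapped, and 23.8% of the exon bases of *Ddb2* are shared with a gene on the other strand. Without sh*Pla2g4e* replicate 2 the log2 fold change was 0.11 for *Polk* and 0.028 for *Ddb2*, and without shCtrl replicate 1 it was 0.050 for *Ddb2*.

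Of the 3 genes of stress and metabolism, *Gdf15*, which encodes a secreted cytokine of the TGF-beta family that is induced in many stresses, had the highest fold change of all members. It had 0.679, 0.956 and 1.24 CPM in shCtrl and 2.76, 3.98 and 1.20 CPM in sh*Pla2g4e*, so that replicates 1 and 2 of sh*Pla2g4e* were above all controls and replicate 3 was not. The log2 fold change was 1.46 (SE 0.40), and edgeR's adjusted p was 0.0243 without and 0.00171 with the replicate block. The antioxidant gene *Sesn1* had 57.6 ± 0.248 and 50.7 ± 4.38 CPM (−0.19, adjusted p = 0.185), and was lower in every sh*Pla2g4e* library. *Dram1*, of lysosomes and autophagy, had 1.33 ± 0.388 and 1.29 ± 0.265 CPM.

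Within same-numbered libraries the pattern was uneven. In replicate 1, 22 of the 31 members were higher in sh*Pla2g4e* (71%), in replicate 2 it was 24 (77.4%), and in replicate 3 it was 14 (45.2%). Of all genes with reads in both libraries of the pair 51.2%, 51.2% and 50.8% were. The median log2 ratio over the members was 0.22, 0.34 and −0.024 in replicates 1, 2 and 3, against 0.010, 0.013 and 0.0063 over all genes with reads in both libraries. Among genes whose log2 CPM averaged 3 or more, 44%, 46.6% and 46.3% were higher, with medians of −0.041, −0.024 and −0.021, so that the members in replicate 3 lay at the level of these genes. Replicate 2 gave the largest ratio for 21 members and replicate 3 the smallest ratio for 17. Among all genes with reads in every library they did so for 34.3% and 31.5%.

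For 12 members the sh*Pla2g4e* library was higher in every pair and for 6 it was lower in every pair, where 26.6% and 26% of the genes with reads in every library were. *Btg2* had log2 ratios of 0.59, 1.21 and 0.87, and *Zmat3* of −0.51, −0.40 and −0.47, so that both held their size in replicate 3. *Pmaip1* had 0.49, 1.65 and 0.31 and *Gdf15* 2.02, 2.06 and −0.051. Without sh*Pla2g4e* replicate 3, 10 members were called, 9 higher and 1 lower, where 1613 of 21608 genes were called in all. They were *Btg2*, *Ccng1* and *Zmat3* with *Cdkn1a*, *Bbc3*, *Pmaip1*, *Phlda3*, *Trp53inp1*, *Eda2r* and *Gdf15*. The same number of members was called without replicate 3 in both groups, where 1834 of 21237 genes were called in all. sh*Pla2g4e* replicate 3 had the lowest total of the 6 libraries (17054717 reads), and the part of depth in the pattern was not tested. Without shCtrl replicate 2 the count was 1, *Btg2*, where 695 of 21674 genes were called in all. Without any other single library it was 2, where 854 to 1291 genes were called.

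**Figure D5:**
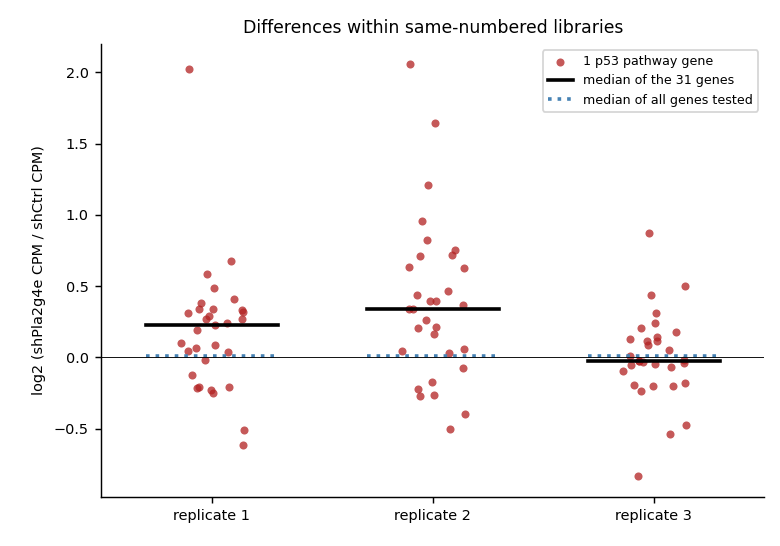
Log2 ratio of sh*Pla2g4e* to shCtrl CPM within each pair of same-numbered libraries (y axis), with 1 point for each of the 31 genes and a black line at their median. A dotted line marks the median of all genes tested that had reads in both libraries. The medians of the members are 0.22, 0.34 and −0.024 in replicates 1, 2 and 3.

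An shRNA can lower unintended mRNAs through bases 2 to 8 of its guide strand, the seed, when their 3′ UTR holds the complement. The sh2 guide is shown with its seed in capitals, with the matching stretches of *Zmat3*, which fell, and *Trp53inp1*, which did not, on the strand of the gene with the match in capitals (GENCODE vM21, GRCm38).
sh2 guide: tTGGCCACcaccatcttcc
*Zmat3*, chr3:32336263-32336289 (minus strand): cccgcctcctGTGGCCAgcgctgcaga
*Trp53inp1*, chr4:11170635-11170661 (plus strand): tacagatgtcGTGGCCAaaagcatttg
The match GTGGCCA occurred in the 3′ UTR of 3 of the 31 members (9.68%), *Zmat3*, *Trp53inp1* and *Pmaip1*, and in 1877 of the 15705 tested genes with such a region (12%). Over all genes the median log2 fold change was −0.15 with the site and 0.019 without it, and these 2 sets of genes were not matched for 3′ UTR length or expression. Of these 3 members only *Zmat3* was lower in sh*Pla2g4e*, at a log2 fold change of −0.46, against 0.34 for *Trp53inp1* and 0.92 for *Pmaip1*. The 3′ UTR of *Zmat3* is long (6692 bases, against a median of 943 over all genes), and a part of the seed in its lower level was not tested.

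Outside the 31 members, 64 other genes of the pathway were listed by role, and 8 of them rose and 4 fell, where 6.49% of all genes were called, with a median log2 fold change of 0.048 against 0.029 over all genes. With the replicate block 15 rose and 8 fell, where 15.5% of all genes were called. Among genes whose log2 CPM averaged 3 or more these shares were 11.0% and 26.0%. Of 15 genes that act upstream of or beside p53 (kinases, adaptors, ubiquitin and SUMO pathway genes, acetyltransferases and the homologue *Trp63*), *Crebbp*, a p53 acetyltransferase, fell from 78.6 ± 3.1 to 62.3 ± 1.0 CPM (log2 fold change −0.33, edgeR adjusted p = 0.00895). *Usp7*, whose product deubiquitinates MDM2 and p53, and the DNA damage kinase gene *Prkdc* were called only with the replicate block, at log2 fold changes of −0.31 and 0.33 (edgeR adjusted p = 0.0129 and 0.0232, and 1.02e-04 and 8.79e-04 with the block).

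Of 35 other p53 targets 5 rose and 3 fell, where 6.49% of all genes were called, and with the replicate block 10 rose and 5 fell, where 15.5% were. *Fbxw7*, whose product is the substrate receptor of a ubiquitin ligase, fell from 326 ± 27.3 to 160.5 ± 24.4 CPM (log2 fold change −1.02, edgeR adjusted p = 1.14e-05). *Tsc2*, an inhibitor of mTORC1, fell from 169 ± 6.81 to 122 ± 5.18 CPM (−0.47, adjusted p = 7.20e-04). *Trp53inp2*, of autophagy, rose from 242 ± 20.3 to 337 ± 27.2 CPM (0.48, adjusted p = 0.00172).

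Among 14 genes of the death machinery around BAX, 3 rose, where 6.49% of all genes were called, and with the replicate block 4 rose and 1 fell, where 15.5% were. The 3 genes, *Bcl2l11*, *Hrk* and *Bid*, encode BH3-only proteins, and *Bad*, which does so too, had a log2 fold change of 0.092 (edgeR adjusted p = 0.643). The block added 2 genes of proteins that hold back apoptosis, *Mcl1* as higher (adjusted p = 0.00372) and *Bcl2l1* as lower (adjusted p = 0.00162). *Bcl2l11*, which encodes BIM, had 12.9, 10.9 and 8.26 CPM in shCtrl and 35.6, 43.5 and 24.6 CPM in sh*Pla2g4e*, far apart in every pair (log2 fold change 1.70, SE 0.19, edgeR adjusted p = 2.04e-05). *Hrk* rose from 50.6 ± 3.82 to 85.3 ± 14.7 CPM (0.76, adjusted p = 2.64e-04) and *Bid* from 24.1 ± 2.86 to 34.7 ± 4.37 CPM (0.53, adjusted p = 0.00629). In *Bcl2l11* and *Hrk*, as in *Bbc3* and *Pmaip1*, replicate 2 was the highest and replicate 3 the lowest of the sh*Pla2g4e* libraries, whereas in *Bid* replicate 2 was the highest and replicates 1 and 3 had 32.1 and 32.2 CPM.

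Genes of neighbouring programs that share members or inducers with the p53 response were counted the same way, against the same 6.49% of all genes and 15.5% with the replicate block. Of 17 activity-regulated genes 4 rose, among them *Dusp1* (log2 fold change 1.08), *Fosb* (0.88) and *Fos* (0.53), and with the replicate block 7 rose and 3 fell. The latter were *Egr1* (−0.28), *Egr3* (−0.42) and *Npas4* (−0.41), all of them core activity genes. *Btg2* is itself induced by activity. Of 11 genes of the integrated stress response 2 rose, *Atf3* (1.25) and *Ddit3* (0.57), and with the replicate block 3 rose and 2 fell. *Slc7a11*, at −0.64, was among the latter (edgeR adjusted p = 0.0189 without and 3.74e-07 with the block). Whether the higher levels of *Btg2*, *Gdf15* and *Pmaip1*, which these programs can also induce, came with them or with p53 was not tested.

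Markers of cell types also differed between the groups, and in bulk RNA fewer cells of a type and less RNA per cell cannot be told apart. The counts that follow stand against 6.49% of all genes called and 15.5% with the replicate block. Of 12 proliferation genes 10 were lower and 2 of them fell, *Mcm5* (log2 fold change −1.16) and *Top2a* (from 14.2 ± 4.17 to 7.16 ± 2.17 CPM), and *Mki67* (−1.12) was called only with the replicate block (edgeR adjusted p = 0.0148 without and 1.51e-08 with it). Their summed level was 92.4 to 129 CPM in shCtrl and 79.4 to 89.6 CPM in sh*Pla2g4e*. Of 9 astrocyte markers 3 fell (*Aqp4*, *Gja1* and *Slc1a2*), with sums of 2911 to 3736 and 1979 to 3170 CPM. With the replicate block 7 of them fell and 1 rose, *S100b*, at a log2 fold change of 1.11 with no overlap (edgeR adjusted p = 0.0211 without and 9.63e-04 with it). Of 10 neuron markers 4 fell (5 with the block), led by *Tubb3* (−1.68), *Slc17a7* (−1.31) and *Map2* (−0.45), and *Slc17a6* rose (0.91, 1 of 2 that rose with the block), with sums of 5974 to 6492 and 4808 to 5340 CPM, so that the defining markers of neurons were present in every library.

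Microglial, oligodendrocyte and fibroblast or vascular markers gave no calls without the replicate block. With it *Olig2* was lower (log2 fold change −0.38, edgeR adjusted p = 5.28e-04) and the collagen genes *Col1a1* (1.18, adjusted p = 4.56e-04) and *Col1a2* (1.20, adjusted p = 0.00824) were higher. The microglial sum was 4.58 to 9.50 CPM in shCtrl and 3.05 to 5.37 CPM in sh*Pla2g4e*, with *Tmem119* and *Itgam* below the filter, and the fibroblast and vascular sum was 46.8 to 82.2 and 47.5 to 97.9 CPM, with *Cldn5* below it. The oligodendrocyte sum was 516 to 585 and 536 to 640.3 CPM. The part of cell composition in the values of the p53 pathway genes, such as the lower *Zmat3* and *Mdm4* or the higher *Cdkn1a* and *Btg2*, was not tested.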

How the data were processed

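The authors aligned reads of 6 stranded poly(A) libraries with STAR (2.7.0d in the submitters' processing notes), counted exonic reads per gene with featureCounts (1.6.0) and deposited raw counts, 1 file per library. Although mm10 and GENCODE M18 are named in the study's methods, the files carry GRCm39 coordinates and GENCODE vM28. The counting was run without strand or read pair options, and reads on several genes or positions were left out. Symbols came from GENCODE vM21 through gene identifiers (52081 of 55357 matched). Unmatched genes took at most 0.387% of a library.

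Counts were tested with edgeR 4.0.16 in R 4.3.3 (TMM, glmQLFit, glmQLFTest) with the study's filter (6 or more reads in 1 or more libraries) and its threshold of 0.01. Standard errors were taken from the F statistic, and the script was tested on simulated data. Alternatives were limma 3.58.1 after voom (the study's test), DESeq2 1.42.0, other scalings and filters, a robust fit, a threshold of 0.05, a replicate block and leaving out each library. Voom with the block and leaving out a number in both groups were added after seeing the data.

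Members and gene lists were chosen with earlier results of these data known. Values in every library are given for members called in the main or blocked fit and for *Trp53*, *Cdkn1a*, *Mdm2*, *Bax*, *Bbc3* and *Pmaip1*, the other members being given by means or ranges. Of each other list up to 3 genes with the smallest p are named. *Slc17a6*, *S100b*, *Bad*, *Mcl1*, *Bcl2l1*, *Egr1*, *Egr3*, *Npas4*, *Trp63* and the per-library values of *Bcl2l11* were added after values were seen.

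In each group the labels give the numbers 1 to 3, and they do not say whether equal numbers mark a shared preparation. For the 11018 genes whose log2 CPM averaged 3 or more, each library's deviation from its group mean correlated with that of the same-numbered library at 0.393, 0.188 and 0.46, and with those of other numbers at −0.392 to 0.106, so that the numbers were taken as pairs.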

Additional observations from a re-analysis of the deposited data

How the results depend on the processing

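No member changed direction while past the threshold. Of 651 combinations of a member and an alternative, 602 kept their side of the threshold, 39 passed it newly and 10 lost it. The 3 calls among the members were unchanged with DESeq2, limma after voom, the robust fit, other scalings and both stricter filters. For the genes called only with the block, the robust fit raised edgeR's adjusted p of *Cdkn1a* (0.528), *Pmaip1* (0.260), *Phlda3* (0.259) and *Eda2r* (0.129). It lowered those of *Bbc3*, *Gdf15*, *Trp53inp1* and *Mdm4*. The adjusted p of DESeq2 was 0.441 for *Cdkn1a* and 0.152 for *Pmaip1*, and was below that of the main fit for the rest of these genes. Without a filter 9 members and 2349 of all genes were called, and at a threshold of 0.05 6 members, 2813 of all genes and 19 other pathway genes were. The replicate block gave 11 members, 3395 genes and 23 other pathway genes, and limma after voom with the replicate block 11, 3333 and 24. The block changed no call of a member other than the 8 named above. Scaling by library size alone moved the median of the members to 0.25, that of all genes to 0.10, and the sign of 1 member.

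With 1 library left out, 1 (without shCtrl replicate 2) to 10 members (without sh*Pla2g4e* replicate 3) were called, 695 to 1613 genes and 5 to 11 other pathway genes, the median was 0.11 to 0.24, and 13 to 22 members did not overlap, where 37.2% to 42.2% of all genes did not. Without replicate 1, 2 or 3 in both groups 1, 1 and 10 members were called, with medians of 0.21, 0.085 and 0.25, and 574, 444 and 1834 genes with 5, 3 and 14 other pathway genes. Fewer libraries leave less power, and the cause of the difference made by sh*Pla2g4e* replicate 3, which had the lowest depth, was not tested. *Gdf15*, *Dram1* and *Trp73*, with 14 to 86 reads, are limited by depth.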
